A study of Mus musculus with 6 samples.

Results

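The genes described here encode the secreted Lgi proteins (Lgi1, Lgi2, Lgi3 and Lgi4) and the ADAM membrane proteins that bind them (Adam11, Adam22 and Adam23), 7 of the 19938 genes that could be named and tested. They were taken by symbol from the platform annotation of the array. Each of the 7 was represented by 1 row of the deposited table, and no row that carries several symbols held any of them. Lgi3 drew attention to this group because of its difference between knockout and wild type, so its values in that comparison are given as a description, with no test. The other 6 genes were brought in by family and by receptor, whatever their values.

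Expression was measured in the lumbar part of the spinal cord in mouse embryos of age E15.5, all of strain SV129. Of the 6 samples, 3 were wild type and 3 were Tnc -/-, a knockout of the gene for the extracellular matrix glycoprotein tenascin-C. The labels name no Cre driver, no pooling and no litters, and which part of Tnc was removed is not given in the sources used here. Each sample was read on 1 whole-transcript array, and the samples of a group are labelled as biological replicates. The values are log2 signals, so that a difference of 1 is a doubling. Different genes have different probes, so levels are compared between arrays for 1 gene and never between genes.

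Lgi proteins consist of leucine-rich repeats followed by EPTP repeats that fold into a propeller, and they are released by neurons and glia into the extracellular space. Their receptors Adam11, Adam22 and Adam23 belong to the ADAM family but lack a working metalloprotease site, and they hold Lgi proteins at synapses and along axons, where Adam22 binds the scaffold protein PSD-95 and both ligand and receptor associate with Kv1 potassium channels and AMPA receptors. Loss of Lgi1 causes epilepsy, and loss of Lgi4 delays myelination by Schwann cells in peripheral nerve. In the spinal cord at this embryonic stage neurons are numerous, synapses are starting to form, and oligodendrocyte precursors and early astrocytes are leaving the ventricular zone.

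RefSeq promoter windows (build GRCm38.p6) were at hand for 4 of the 7 genes, Lgi1, Lgi2, Adam22 and Adam23. The windows of the paralogs Lgi1 and Lgi2 are shown because Lgi2 separated knockout from wild type and Lgi1 overlapped, as described further on. Whether these paralogs differ from each other was not tested. Each is the 250 bases before the transcription start, written 5' to 3' on the strand of the gene, with CG dinucleotides in capitals. The Lgi1 window is chr19:38264437-38264686 on the plus strand and the Lgi2 window is chr5:52566307-52566556 on the minus strand.
Lgi1: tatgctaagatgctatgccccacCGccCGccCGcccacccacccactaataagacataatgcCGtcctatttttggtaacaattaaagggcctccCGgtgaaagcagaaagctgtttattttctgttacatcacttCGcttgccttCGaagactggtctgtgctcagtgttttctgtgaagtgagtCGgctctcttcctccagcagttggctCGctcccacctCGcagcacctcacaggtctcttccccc
Lgi2: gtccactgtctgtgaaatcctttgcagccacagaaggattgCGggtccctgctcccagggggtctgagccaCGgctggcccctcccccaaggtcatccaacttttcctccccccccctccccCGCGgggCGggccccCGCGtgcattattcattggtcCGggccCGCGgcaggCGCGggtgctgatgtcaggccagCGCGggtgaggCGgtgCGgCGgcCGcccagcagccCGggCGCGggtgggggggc
The Lgi1 window held 10 CG dinucleotides and the Lgi2 window 21, against a median of 6 over 32851 promoter windows of the same length. Adam22 had 17 and Adam23 had 27. The GC share was 52.4% for Lgi1, 72.4% for Lgi2, 66.8% for Adam22 and 70.4% for Adam23. The motif GGGCGG, searched on both strands, occurred 3 times in the Lgi1 window and 2 times in that of Lgi2, and was not found in those of the ADAM genes; it occurs in 32.7% of all windows. CCAAT was found 1 time, in Lgi2, and occurs in 33.9% of windows. TATAAA, present in 12.4% of windows, was found in none of the 4. These are descriptions of the letters in these windows.

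Lgi3 read higher in every knockout array than in any wild-type array, and Lgi2 did so by a smaller amount. The other paralogs Lgi1 and Lgi4 and the receptors Adam11, Adam22 and Adam23 overlapped between the groups. Across all genes limma with Benjamini-Hochberg adjustment called 0 of 19938 (0%) at an adjusted p of 0.05, and 339 (1.7%) had an unadjusted p under 0.05, so none of the 6 genes tested here passed. The knockout values lay wholly above the wild-type values for 634 genes (3.18%) and wholly below them for 527 (2.64%), together 5.82% of genes. Among the 7 genes 2 lay wholly above and 0 wholly below, but Lgi3 had been picked from this contrast, which leaves Lgi2 as 1 of the 6 genes that had not.

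**Figure D1:**
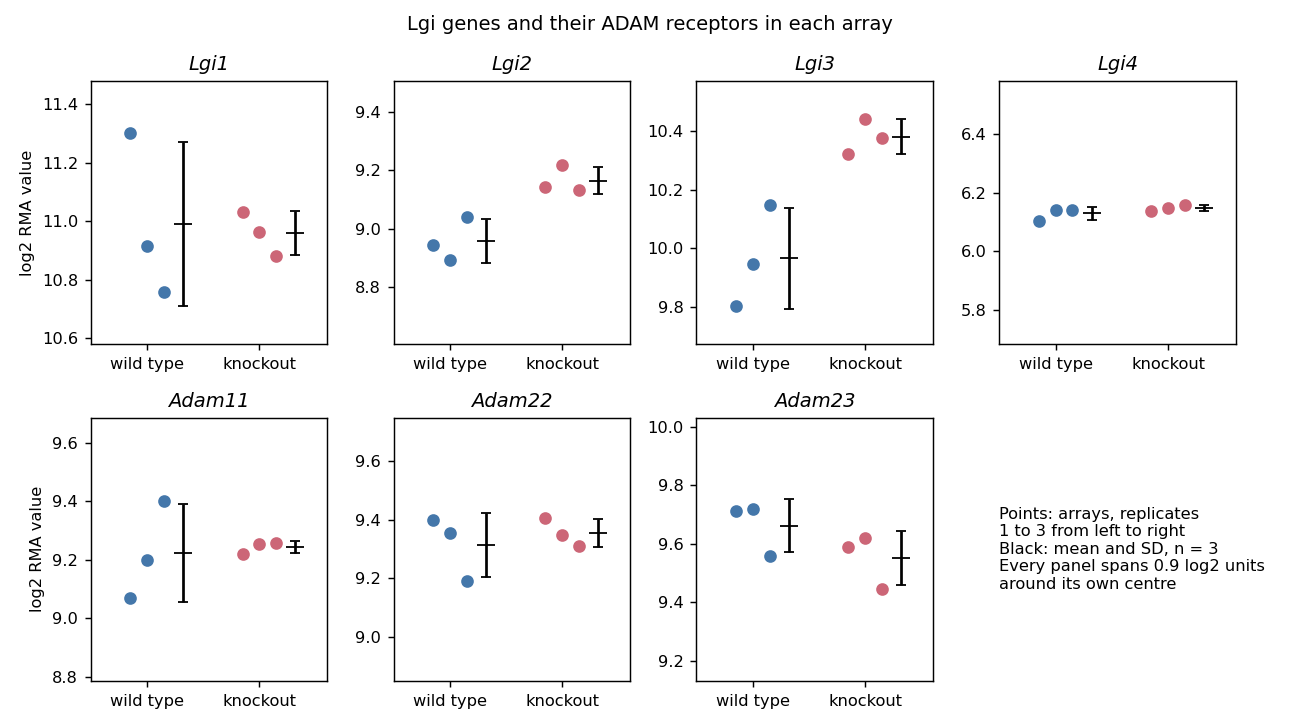
Log2 RMA value (vertical axis) of each Lgi and ADAM gene in the 3 wild-type and 3 knockout arrays, 1 panel per gene, every panel spanning the same number of log2 units; points are arrays and black marks the mean and SD. Lgi3 and Lgi2 separate the groups, with knockout arrays of Lgi3 between 10.32 and 10.44 and wild-type arrays between 9.80 and 10.15, whereas the other 5 genes overlap.

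Lgi3, a secreted paralog made in the nervous system, read 9.80, 9.95 and 10.15 in wild-type replicates 1, 2 and 3 and 10.32, 10.44 and 10.38 in knockout replicates 1, 2 and 3. All knockout arrays lay above the highest wild-type array, by a gap of 0.175, and the wild-type arrays spread over 0.35 log2 units against 0.12 in the knockout. The wild-type mean was 9.97 ± 0.17 and the knockout mean 10.38 ± 0.06 (SD, n = 3 each). Knockout exceeded wild type by 0.42 log2 units (standard error 0.10, 95% interval 0.19 to 0.64), which put the knockout signal at 133% of wild type. Like all intervals here, this one uses limma's standard error, in which the variance of a gene is drawn toward that of all genes. It is not a test, given how Lgi3 was chosen. The difference ran from 0.33 (without wild-type replicate 1) to 0.51 (without wild-type replicate 3) when single arrays were left out.

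The embryos also differed in sex. Only knockout arrays carried a Y-linked signal, so sex and genotype were partly mixed in this comparison. What sex contributed to the differences of Lgi3 and Lgi2 was not tested. Y-linked genes (Uty, Eif2s3y and Kdm5d) averaged 8.20 and 7.86 in knockout replicates 1 and 3 and between 4.32 and 4.48 in the other 4 arrays. Knockout replicate 2, which lacks this signal as all wild-type arrays do, had the highest reading of Lgi3 among the 6 arrays, 10.44, and also the highest of Lgi2, 9.22. With a sex term, which sets that 1 knockout array against the 3 wild-type arrays, the difference was 0.48 for Lgi3 and 0.26 for Lgi2, and for the other 5 genes it lay between -0.04 (Adam23) and 0.03.

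Lgi2, a paralog whose loss causes a juvenile epilepsy in dogs, read 8.94, 8.89 and 9.04 in wild-type replicates 1 to 3 and 9.14, 9.22 and 9.13 in the knockout replicates. The lowest knockout array lay 0.09 above the highest wild-type array. The wild-type mean was 8.96 ± 0.08 and the knockout mean 9.16 ± 0.05 (SD, n = 3 each). The knockout signal was 115% of wild type, 0.21 log2 units above it (standard error 0.07, 95% interval 0.03 to 0.38). This difference did not pass limma's test, with an unadjusted p of 0.0241 and, after adjustment over the 19938 genes, a p of 1. With single arrays left out it lay between 0.17 and 0.25. Its sign could not change there, because the groups did not overlap.

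Lgi1, the epilepsy gene of the family, read 11.30, 10.91 and 10.76 in wild type and 11.03, 10.96 and 10.88 in knockout. The knockout arrays lay inside the wild-type range, which at 0.55 log2 units was the widest of the 7 genes. Its difference was -0.03 with an interval from -0.34 to 0.28 (limma unadjusted p 0.822, adjusted p 1). Without wild-type replicate 1, the array with the highest reading, it was 0.12, and without wild-type replicate 3 it was -0.15. Its direction is therefore not settled by these arrays.

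Lgi4, the paralog that acts on Schwann cells, read 6.11, 6.14 and 6.14 in wild type and 6.14, 6.15 and 6.16 in knockout. Its mean over the 6 arrays, 6.14, equalled to 2 decimals the level used here as a background guide. That guide is the 95th percentile of the mean values of 1190 genes for olfactory or vomeronasal receptors. Its pooled within-group SD of 0.02 was smaller than that of all but 0.3% of genes. The difference of 0.02 (interval -0.13 to 0.17) was thus measured on a signal at the guide (limma unadjusted p 0.773, adjusted p 1).

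Among the receptors, Adam11, the member best known from the cerebellum, read 9.07, 9.20 and 9.40 in wild type and 9.22, 9.25 and 9.26 in knockout. Its groups overlapped, with a difference of 0.02 and an interval from -0.20 to 0.24 (limma unadjusted p 0.841, adjusted p 1). Adam22, the receptor that binds PSD-95, read 9.40, 9.35 and 9.19 in wild type and 9.41, 9.35 and 9.31 in knockout. Its difference was 0.04 with an interval from -0.15 to 0.23 (limma unadjusted p 0.628, adjusted p 1). Adam23, which acts with Adam22 across the synapse, read 9.71, 9.72 and 9.56 in wild type and 9.59, 9.62 and 9.45 in knockout. It was the receptor with the lowest difference, -0.11, with an interval from -0.30 to 0.08 (limma unadjusted p 0.224, adjusted p 1). Adam23 was lower with each single array left out, from -0.16 (without wild-type replicate 3) to -0.06 (without knockout replicate 3), and -0.04 with the sex term, whereas Adam11 was -0.06 without wild-type replicate 1 and Adam22 was -0.02 without wild-type replicate 3.

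**Figure D2:**
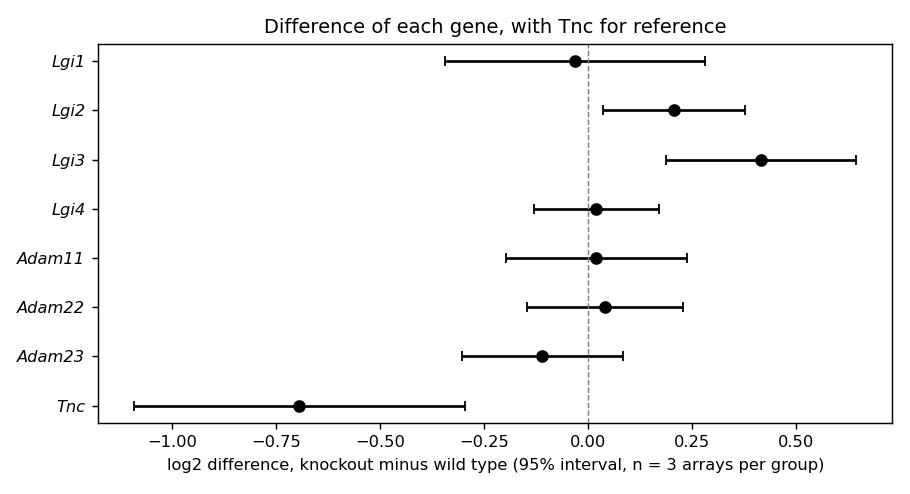
Log2 difference of knockout minus wild type (horizontal axis) with its 95% interval for the 7 genes, with Tnc for reference, n = 3 arrays per group. The intervals of Lgi3 (0.19 to 0.64) and Lgi2 (0.03 to 0.38) lie above 0, those of the other 5 genes span 0, and that of Tnc lies below it; Lgi3 was chosen for its difference.

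As a check of the labels, Tnc read 10.72, 10.22 and 10.02 in wild type and 9.64, 9.76 and 9.47 in knockout. The groups did not overlap, and the knockout signal was 61.8% of wild type. The difference was -0.69, with an exact two-sided permutation p of 0.1, the smallest that 3 arrays against 3 allow, and a limma adjusted p of 1 (unadjusted 0.0038). The array medians lay between 6.96 and 7.10 over the 35557 rows, and a single component held 49.0% of the variance over all genes. Its scores were -18.46, -5.32 and 22.84 in wild-type replicates 1, 2 and 3. In knockout replicates 1, 2 and 3 they were -8.33, -0.22 and 9.48, so they rose with the replicate number in both groups.

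The receptors and Lgi1 had larger correlations with that component than Lgi3 did. Over the 6 arrays Pearson's r with the component scores was 0.95 for Adam11, -0.95 for Adam22, -0.90 for Lgi1 and -0.68 for Adam23, and it was 0.64 for Lgi4, 0.44 for Lgi3 and 0.28 for Lgi2. These correlations describe the same 6 arrays, which share the component, and are given without a p. Lgi1 and Adam11 ran opposite to each other (r = -0.92), as did Adam11 and Adam22 (r = -0.87), while Lgi2 and Lgi3 ran together (r = 0.94). Among 14683 genes with a mean above the background guide, the r of Lgi2 with Lgi3 was higher than that of 99.7%, and the r of Lgi4 with Lgi3 (0.80) higher than that of 96.8%. These values include the difference between the groups.

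Set against each of the other 6 genes within an array, Lgi3 stood higher in the knockout on average. The log2 value of Lgi3 minus that of Adam11 was 0.73, 0.75 and 0.75 in the wild-type arrays and 1.10, 1.19 and 1.12 in the knockout arrays. Among the wild-type arrays the SD of this difference was 0.01, the smallest of the 6 pairings. For the other pairings the wild-type SD ran from 0.13 (Lgi2) to 0.45 (Lgi1). The shift against Adam11 was 0.40 on average. Lgi3 minus Lgi2 was 0.86, 1.05 and 1.11 in wild type and 1.18, 1.22 and 1.24 in knockout, a shift of 0.21. Against Lgi4 and Adam23 the groups also did not overlap, with shifts of 0.40 and 0.53. Against Lgi1 and Adam22 they overlapped, with shifts of 0.45 and 0.37. All of these contain the contrast that chose Lgi3 and were not tested.

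For 2 pairs without Lgi3, chosen after the values were seen, the within-array differences are given with no test. Lgi2 minus Lgi1 was -2.36, -2.02 and -1.72 in wild type and -1.89, -1.75 and -1.75 in knockout, a shift of 0.24 with overlapping groups. Adam22 minus Adam23 was -0.31, -0.36 and -0.37 in wild type and -0.18, -0.27 and -0.13 in knockout. The groups did not overlap, with a shift of 0.15.

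**Figure D3:**
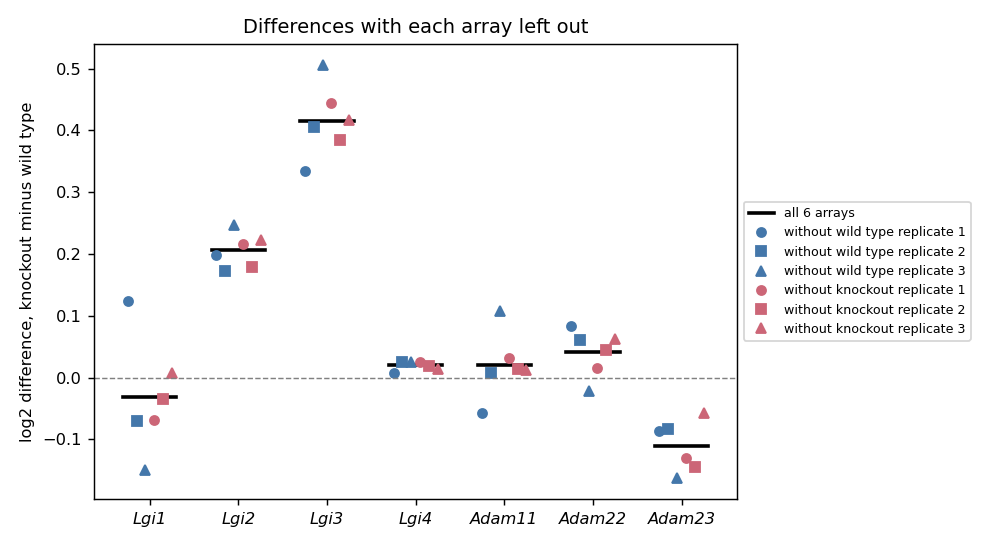
Log2 difference of knockout minus wild type (vertical axis) for each of the 7 genes with all 6 arrays (black line) and with each array left out in turn (symbols; blue for a wild-type and red for a knockout array). Lgi3 lies between 0.33 and 0.51 and Lgi2 between 0.17 and 0.25, whereas Lgi1, Adam11 and Adam22 have values on both sides of 0. For Lgi3 and Lgi2 the sign could not change, because their groups do not overlap.

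Lgi3 lies on chromosome 14, away from Tnc on chromosome 4, and the other 6 genes lie on chromosomes 1 (Adam23), 5 (Lgi2 and Adam22), 7 (Lgi4), 11 (Adam11) and 19 (Lgi1). The 4 nearest tested genes on each side of Lgi3 had differences between -0.19 (the surfactant gene Sftpc, whose mean of 5.58 was below the background guide) and 0.19 (Phyhip). Phyhip was the only one of these 8 whose groups did not overlap, at 8.06, 8.15 and 8.34 in wild type and 8.36, 8.39 and 8.36 in knockout, and its difference had an interval of -0.01 to 0.39 (limma unadjusted p 0.0649, adjusted p 1). Bmp1, a protease that processes procollagen, differed by 0.07, Fam160b2 by 0.09, Nudt18 by 0.03, Hr by 0.00, Reep4 by -0.04 and the microRNA gene Mir320 by -0.06. None of these reached the value of Lgi3, which was chosen for its difference, so this comparison is a description only.

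**Figure D4:**
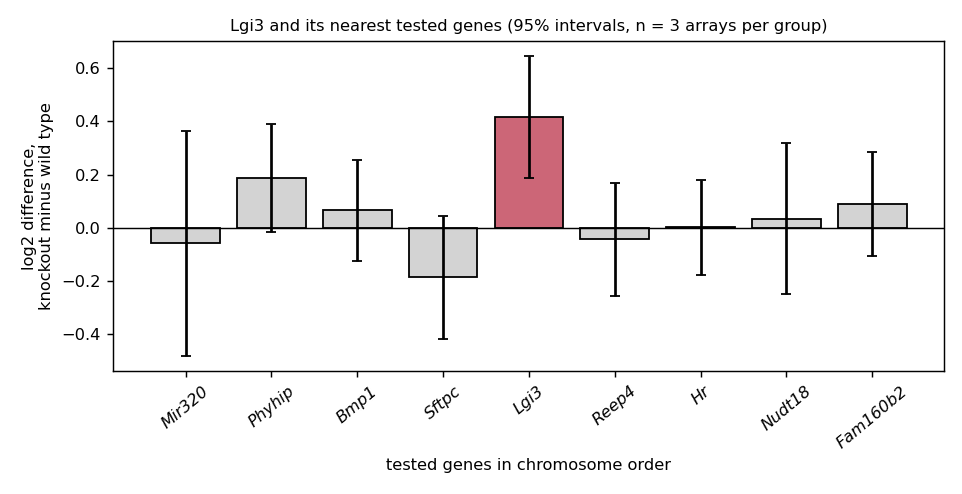
Log2 difference of knockout minus wild type (vertical axis, bars with 95% intervals) of Lgi3 and the 4 nearest tested genes on each side, in chromosome order (horizontal axis), n = 3 arrays per group. Lgi3, chosen for its difference, stands at 0.42 and its neighbours between -0.19 and 0.19, each neighbour with an interval that spans 0.

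Genes whose values ran most like those of Lgi3 over the 6 arrays, among 14683 above the background guide, were Ccdc3 (r = 0.99), Lingo1 (0.99), Cit (0.98), Susd2 (0.98) and Tie1 (0.98). Their differences between knockout and wild type were 0.44, 0.12, 0.12, 0.21 and 0.23. Tie1 is an endothelial receptor, Lingo1 is a leucine-rich repeat partner of the Nogo receptor, and Cit encodes citron kinase. The genes running most opposite were Tbc1d25 (-0.98), Zkscan6 (-0.98) and Pik3cb (-0.98), with differences of -0.09, -0.13 and -0.09. These values of r rest on 6 arrays and include the difference between the groups, and they are descriptions.

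The partners of the Lgi and ADAM proteins were followed as lists, each set beside all tested genes, of which 9253 (46.4%) were higher in knockout with a median of -0.01. No member of any of these lists passed limma's adjusted p of 0.05. The Kv1 channel and juxtaparanode list, which holds the channels that Lgi and ADAM proteins associate with, had 9 of 12 genes higher and 3 lower with a median of 0.06. Its highest members were Epb41l3, the protein 4.1B of the juxtaparanode, at 0.16 and the channel beta subunit Kcnab1 at 0.16, and its lowest were Kcna3 (-0.04) and Cntnap2 (-0.04). The pore subunits Kcna1 and Kcna2 differed by 0.04 and 0.06 and the adhesion molecule Cntn2 by -0.01. This median stayed positive in all 15 alternatives, as did those of the Nogo receptor and neurexin lists described below. Some alternatives, such as the replicate block and the intensity trend, could not alter it. Its size was less stable: leaving out wild-type replicate 2 gave 0.035, and adding a sex term gave 0.112. In all, 1 of its 12 genes separated the groups in the higher direction, against 3.18% of all genes.

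Scaffolds of the MAGUK type and their partners, which Adam22 binds, had 4 of 11 genes higher and a median of -0.03. The sign of that median changed in 4 of 15 alternatives, and it was 0.06 without wild-type replicate 1. Dlg4, the gene for PSD-95, spanned 12.04 to 12.10 over wild-type arrays and 11.98 to 12.11 over knockout arrays, with a difference of -0.05 and an interval from -0.21 to 0.12. The range of the list ran from Dlg1 (-0.07) and Dlgap1 (-0.06) to Dlgap2 (0.04) and Mpp2 (0.17). AMPA receptor subunits and their auxiliary subunits had 7 of 13 genes higher and a median of 0.00, which was negative under median centring. The auxiliary subunit Cacng3 read 10.76, 10.68 and 10.71 in wild type and 10.90, 11.00 and 10.93 in knockout, with a difference of 0.23 and an interval from 0.06 to 0.39 (limma unadjusted p 0.0123, adjusted p 1). Shisa9 followed at 0.12, and the lowest members were Cacng4 (-0.11) and Cnih3 (-0.08). In this list 1 of 13 genes, Cacng3, lay wholly above and 1, Cacng4, wholly below, against 3.18% and 2.64% of all genes. The subunit Gria2 differed by -0.05, and Cacng2, or stargazin, which forms a complex with Lgi1 and Adam22, by 0.03.

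The Nogo receptor list, named because Lgi1 has been reported to bind Rtn4r, had 5 of 10 genes higher and a median of 0.01. Its highest members were Ngfr (0.20) and Lingo1 (0.12), and its lowest Rtn4rl1 (-0.12) and Lingo2 (-0.09). Rtn4r itself differed by 0.11. In this list 1 of 10 genes, Lingo1, lay wholly above and 0 wholly below, against 3.18% and 2.64% of all genes. Neurexins and leucine-rich repeat synaptic organisers, which bridge synapses as the Lgi and ADAM complex does, had 18 of 21 genes higher and a median of 0.03, and 3 of them separated the groups in the higher direction, against 3.18% of all genes. These were Slitrk6 (0.33), Flrt2 (0.17) and Lrrtm1 (0.13), and the lowest were Slitrk1 (-0.08) and Slitrk4 (-0.08). Slitrk6 spanned 7.61 to 7.75 over wild-type arrays and 7.80 to 8.16 over knockout arrays (interval 0.09 to 0.57, limma unadjusted p 0.0132, adjusted p 1). Genes of peripheral glial development with Lgi4 had 5 of 9 measured genes higher and a median of 0.01, which was negative under renewed quantile normalization. Pou3f1 and Sox10, transcription factors of myelinating glia, differed by 0.06 and 0.05, Adgrg6, a receptor needed for Schwann cell myelination, by -0.14, and the neuregulin receptor Erbb2 by -0.07.

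Other ADAM genes had 12 of 29 higher, 17 lower and a median of -0.01, and only 9 of the 29 had a mean above the background guide. Of the 29, 1 lay wholly above and 3 wholly below, against 3.18% and 2.64% of all genes. All of these had a mean below the guide. No gene of the MAGUK, EPTP or peripheral glial lists separated the groups. Among those 9 Adam9 (0.08) and Adam12 (0.07) were highest and Adam8 (-0.13) and Adam10 (-0.05) lowest, and the sheddase Adam17 differed by 0.01. Adgrv1 and Tspear, the other genes with EPTP repeats, differed by -0.05 and -0.02. The differences of the 9 genes above the guide, from -0.13 to 0.08, covered the range of the receptors Adam11, Adam22 and Adam23, from -0.11 to 0.04.

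**Figure D5:**
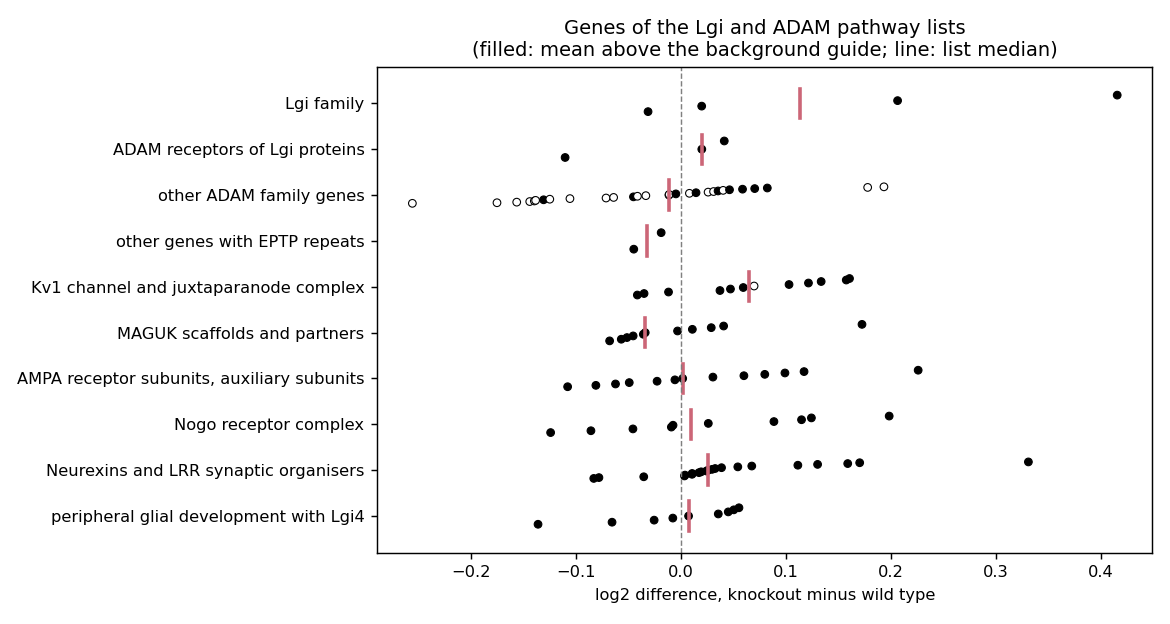
Log2 difference of knockout minus wild type (horizontal axis) for every measured gene of each list (rows); filled points have a mean above the background guide, open points do not, and red lines are list medians. Lgi3 lies at 0.42 and Lgi2 at 0.21, and Slitrk6 (0.33) and Cacng3 (0.23) of other lists lie further right than Lgi2. The list medians outside the Lgi family lie between -0.03 and 0.06.

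Markers of the cell types in the cord and around it were read beside Lgi3 and Lgi2. Of all tested genes, 46.4% were higher in knockout. For oligodendrocyte lineage markers 9 of 11 were higher. Their mean per array ran from 8.09 to 8.14 in wild type and from 8.19 to 8.23 in knockout, without overlap. Of these 11 genes, 3 lay wholly above and 0 wholly below, against 3.18% and 2.64% of all genes. The means per array of the Kv1 list did not overlap either, at 8.95 to 8.99 against 9.02 to 9.07. Nor did those of the Lgi family list, which holds Lgi3. Among the oligodendrocyte lineage markers Nkx2-2 (0.30) and Olig2 (0.24) were highest. Of the myelin genes, Mobp (-0.19) and Mog (-0.03) were lower in knockout, and Cnp (0.17), Mbp (0.07) and Mag (0.03) were higher. Endothelial markers were higher in 9 of 9, from 8.52 to 8.67 against 8.64 to 8.85, with Cdh5 at 0.26 and Pecam1 at 0.20. Neuronal markers were higher in 7 of 11, from 12.33 to 12.39 against 12.36 to 12.42, with Elavl4 at 0.11 and Nefm at 0.10. Radial glia markers were higher in 8 of 9, from 10.19 to 10.41 against 10.33 to 10.40, with Prom1 at 0.23 and Pax6 at 0.14.

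Astrocyte markers were higher in 6 of 11, from 9.10 to 9.20 against 9.17 to 9.23, with Gjb6 at -0.33 and Aqp4 at 0.26. Dorsal root ganglion markers were higher in 7 of 8 measured, from 7.14 to 7.28 against 7.25 to 7.45, with Scn10a at 0.29 and P2rx3 at 0.23. In this list 5 of the 8 had a mean above the background guide, and the mean of Scn10a was below it. Schwann cell and nerve root markers were higher in 2 of 8 measured, from 7.04 to 7.21 against 7.03 to 7.11, with Mal at -0.18 and Foxd3 at 0.05. Meningeal and fibroblast markers were higher in 2 of 10, from 7.62 to 7.87 against 7.46 to 7.67, with Slc6a13 at -0.46 and Dcn at 0.38. Muscle markers were higher in 5 of 8, from 6.16 to 6.56 against 6.40 to 6.52, with Acta1 and Myl1 both at 0.15. Of these 8, 5 had a mean above the background guide, and the mean of Myl1 was below it. Microglial markers were higher in 6 of 7 measured, from 7.30 to 7.34 against 7.27 to 7.41, with Aif1 at -0.19 and Csf1r at 0.12. Of these 7, 6 had a mean above the guide, and the mean of Aif1 was below it. The part of these shifts in the values of Lgi3 and Lgi2 was not tested, and in tissue RNA a change in the number of cells of a type and a change in RNA per cell cannot be told apart.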

How the data were processed

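Total RNA from the 6 samples was extracted, amplified, biotin-labelled and hybridised to an Affymetrix whole-transcript array, per the labels' protocols. Per the submitters' processing notes the authors used RMA, of unstated version, to make the deposited log2 values. RMA subtracts background, gives all arrays one distribution and summarises the probes of a row, so small differences are compressed and global shifts removed. Of 35557 rows, 21789 had exactly 1 symbol, 1621 had several and 12147 were unnamed here. Symbols were updated through entrez identifiers against RefSeq (GRCm38.p6), giving 19938 genes, of which 19919 have a symbol in that table. For 999 genes with several rows the row of highest mean was used.

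Knockout and wild type were compared by limma 3.58.1 (lmFit, eBayes, R 4.3.3) over all genes of the 6 arrays, with no term but group, two-sided, with Benjamini-Hochberg adjustment over all genes and a threshold of 0.05. The fit was tested on simulated data. The number of arrays limits the precision.

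The 7 genes and all lists were chosen with earlier results of these data known. Named from the lists are 10 genes fixed by name and, in each pathway list, the 2 highest and 2 lowest differences above the background guide. The 2 largest differences in each marker list and 4 neighbours on each side of Lgi3 are named too. So are the genes with the 5 highest and the 3 lowest values of r with Lgi3. Lrrtm1, Mobp, Mog, Cnp, Mbp and Mag were named after their values were seen. Alternatives were each array left out, the replicate number as a block, a filter at the 25th percentile of level, an intensity trend, a sex term, array weights, median centring, renewed quantile normalization, and the lowest or the mean row of a gene.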

Additional observations from a re-analysis of the deposited data

How the results depend on the processing

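Over the 15 alternatives the difference of Lgi3 lay between 0.33 and 0.51 and that of Lgi2 between 0.17 and 0.27. The adjusted p of Lgi2 from limma ran from 0.342 (array weights) to 1. Leaving out 1 array could change neither sign, because the groups of both genes do not overlap. The replicate block, level filter, intensity trend and choice of row left both differences unchanged, at 0.42 and 0.21. Most alternatives therefore could not give another sign. With single arrays left out Lgi1 ran from -0.15 to 0.12, Adam11 from -0.0568 to 0.11 and Adam22 from -0.0211 to 0.0836, so their directions were not stable. Lgi1 was 0.0076 with array weights. No alternative brought any of the 6 tested genes past the threshold. The count of genes past an adjusted p of 0.05 ran from 0 to 4 with single arrays left out. The 4, without knockout replicate 2, were Xist, Uty, Eif2s3y and Kdm5d. The count at an unadjusted p under 0.05, 339 with all arrays, ran from 220 (without knockout replicate 2) to 1377 (without wild-type replicate 3) and was 663 without wild-type replicate 1. It was 2102 with array weights, 201 with a sex term and 636 with the replicate number as a block. The cause was not tested. Deviations of same-numbered arrays correlated at 0.35, -0.07 and 0.45 for numbers 1, 2 and 3. Arrays numbered 1 and 3 correlated best with their own number, and wild-type replicate 2 with knockout replicate 1 (0.28). The labels do not say that the numbers pair the samples, so the block was kept as an alternative. Whether the numbers mark a shared batch or pairing was not tested. Without wild-type replicate 1 the list medians were 0.05 for the Nogo receptor complex, -0.07 for other ADAM genes and -0.08 for peripheral glial development. With single arrays left out the medians of the AMPA, MAGUK, EPTP, other ADAM and peripheral glial lists took both signs. Lgi4 was measured at the level of the background guide.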
